A study of Mus musculus with 7 samples.

Results

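Ribosome biogenesis factors are the proteins that transcribe ribosomal RNA (rRNA), process it and assemble it with ribosomal proteins into the small and the large subunit. The set described here holds 52 genes of 24421 gene symbols in the counts, chosen by name to cover rRNA transcription, rRNA processing and subunit assembly, without helicases, ribosomal proteins and the core proteins of small nucleolar ribonucleoproteins. Of these, 51 were found under their listed symbol and Utp4 under its older symbol Cirh1a. All 52 passed the filter on low counts that left 13340 genes for testing, and the counts of a factor in a sample ran from 1232 to 94744.

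The transcriptomes of LSK cells (Lin-Sca1+Kit+), the marrow fraction in which hematopoietic stem cells and the earliest progenitors are found, were profiled by RNA-seq. The question was how the loss of 1 Ddx41 allele, which encodes a DEAD-box RNA helicase, changes the transcriptome of these cells. BoyJ recipients received marrow mononuclear cells from Rosa-CreERT2 donors that carried either wild-type Ddx41 or 1 floxed Ddx41 allele. Both genotypes carried the tamoxifen-activated recombinase and all recipients were given 1 mg tamoxifen in 2 rounds of 5 days with 2 days between them, so that recombinase and drug are shared by the groups. At 8 weeks after transplant LSK cells were sorted into 4 samples of Ddx41+/+ (replicates 1 to 4) and 3 of Ddx41+/- (replicates 6 to 8). The recombinase is expressed from a locus that is active in most cell types, and the sample labels do not say whether LSK cells of the recipient were gated out. The age and sex of the mice are not given in the sources used here.

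In the nucleolus, RNA polymerase I (Pol I) transcribes a long rRNA precursor that is cut, modified and folded while the subunits form around it. The small-subunit processome, a large particle that includes the UTP-A, UTP-B and MPP10 complexes and the U3 small nucleolar RNA, assembles on the growing precursor, and a further set of factors, among them the PeBoW complex, builds the large subunit. Genes of this kind are known targets of Myc proteins, their output rises with growth and division, and hematopoietic stem cells are known for a low and tightly controlled rate of protein synthesis.

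Promoters were inspected for short sequences that the choice of genes did not use, and the matches below are shown because they locate a feature shared by part of the set. RefSeq promoter sequences (assembly GRCm38.p6, 250 bases before to 50 after the start) were found for 43 of the 52 factors. The E-box CACGTG, the sequence that Myc proteins are known to bind and which reads the same on both strands, was present in 10 of the 43 genes (23.3%), beside 11.6% of the tested genes and 8.09% of all genes with a promoter entry. The ETS-type sequence CCGGAAGT, searched on both strands, was present in 11 genes (25.6%), beside 8.93% of tested genes and 4.31% of all. The palindromic promoter element with a CGCG core known from ZBTB33 was found in 0 of the 43 genes, beside 1.12% of tested genes and 0.525% of all. No E-box match overlapped an ETS match, and a match describes letters in a window and not a bound site.

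Upstream stretches with an E-box before the start are printed 5′ to 3′ on the gene's strand, with the E-box in capitals and each stretch ending at or before the base next to the start. That of Rrn3, the factor that makes Pol I competent to initiate, lies at chr16:13780449-13780698 (plus strand) and holds 2 E-boxes. Those of Nop2 (chr6:125131753-125131882, plus strand), Imp4 (chr1:34439699-34439828, plus strand) and Utp18 (chr11:93885767-93885896, minus strand) hold 1 each.
Rrn3: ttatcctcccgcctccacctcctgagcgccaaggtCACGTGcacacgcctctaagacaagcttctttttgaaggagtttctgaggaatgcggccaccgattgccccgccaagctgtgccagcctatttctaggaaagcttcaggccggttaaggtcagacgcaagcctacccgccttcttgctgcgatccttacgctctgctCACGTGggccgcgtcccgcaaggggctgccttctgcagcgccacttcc
Nop2: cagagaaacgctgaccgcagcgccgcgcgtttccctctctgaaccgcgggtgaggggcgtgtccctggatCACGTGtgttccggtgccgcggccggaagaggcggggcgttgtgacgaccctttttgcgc
Imp4: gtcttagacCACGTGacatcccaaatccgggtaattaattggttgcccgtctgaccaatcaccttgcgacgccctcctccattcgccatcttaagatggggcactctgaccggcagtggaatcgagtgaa
Utp18: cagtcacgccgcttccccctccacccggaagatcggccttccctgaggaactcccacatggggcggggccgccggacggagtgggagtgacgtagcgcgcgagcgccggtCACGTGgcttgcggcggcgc

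Stretches with the ETS-type sequence follow, with CCGGAAGT or its reverse complement in capitals, from Utp4 (chr8:106893510-106893639, plus strand), Ltv1 (chr10:13193138-13193267, minus strand) and Heatr1 (chr13:12395245-12395374, plus strand). Utp4 and Ltv1 hold 2 matches each and Heatr1 holds 1.
Utp4: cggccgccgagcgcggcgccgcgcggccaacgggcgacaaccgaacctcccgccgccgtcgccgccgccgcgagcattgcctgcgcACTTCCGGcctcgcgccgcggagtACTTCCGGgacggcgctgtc
Ltv1: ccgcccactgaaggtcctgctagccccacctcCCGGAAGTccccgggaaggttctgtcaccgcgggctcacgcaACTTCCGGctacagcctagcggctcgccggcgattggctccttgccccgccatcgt
Heatr1: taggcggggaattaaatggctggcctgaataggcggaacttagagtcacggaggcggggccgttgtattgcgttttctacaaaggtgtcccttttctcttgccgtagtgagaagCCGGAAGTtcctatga

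Total counts per sample ran from 32234499 to 43751290 and did not pass a test by genotype (exact permutation p = 0.457, two-sided), and levels are given as CPM, counts scaled to the library size. Ddx41 averaged 97.9 CPM (SD 6.43, n = 4) in Ddx41+/+ samples against 67.3 CPM (SD 2.63, n = 3) in Ddx41+/- samples, a log2 fold change of -0.54 (SE 0.071, edgeR BH-adjusted p = 0.0052), without overlap. Summed CPM of 10 mature neutrophil markers spanned 741 to 1255 in Ddx41+/+ samples against 1335 to 2283 in Ddx41+/- samples, and 9 of the 10 had an unadjusted p under 0.05, all higher. Summed CPM of 12 long-term stem cell markers ran from 600.3 to 731 and from 478 to 529, with Txnip and Gata2 lower at a BH-adjusted p under 0.05. The 12 LSK markers were all detected, at sums of 1838 to 2038 and 1706 to 1848 CPM, and 7 of them had an unadjusted p under 0.05, all lower. B-lineage markers (9 tested) summed to 424 CPM in Ddx41+/- replicate 7 and to between 94.97 and 192 CPM in the other samples, while all 6 globin genes listed for late erythroid cells were at 0 in every sample. The part of these shifts in the values below was not tested, and in bulk RNA fewer cells of a type cannot be told apart from less RNA per cell.

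The ribosome biogenesis factors stayed close to their Ddx41+/+ level in Ddx41+/- LSK cells. In edgeR's quasi-likelihood test, 0 of the 52 had a Benjamini-Hochberg (BH) adjusted p under 0.05, beside 0.217% of all genes tested, and the smallest adjusted p was 0.380, for Utp20. DESeq2 and limma-voom also called 0. At an unadjusted p under 0.05 there were 5 factors (9.62%), beside 10.6% of all genes, namely 3 on the higher side (Utp20, Mphosph10 and Bms1, beside 5.7% of all genes) and 2 on the lower side (Imp3 and Rrp9, beside 4.93%). In genes of the same CPM range as the factors the share was 13.0%. The count was 2 without Ddx41+/+ replicate 2 (8.26% of all genes in that fit), 1 without Ddx41+/+ replicate 4 (9.67%), 2 without Ddx41+/- replicate 7 (7.31%) and 3 without Ddx41+/- replicate 8 (8.12%). CPM did not overlap between genotypes in 5 factors (9.62%), beside 10.1% of all genes and 11.4% of genes in the same CPM range, with 3 higher (Mphosph10, Bms1 and Ltv1, beside 4.85%) and 2 lower (Imp3 and Rrp9, beside 5.21%). That number was 9 without Ddx41+/+ replicate 1, 8 without Ddx41+/- replicate 7 and 10 without Ddx41+/- replicate 8. Fewer samples overlap less often by construction in any gene. The shares of all genes without overlap in these fits are not given here, so these 3 counts cannot be read as a result about the factors. With all 7 samples both shares of the factors lay near those of all genes. The 4 fits given for the unadjusted p were among those where its count fell. That count was 6 with DESeq2 (11.1% of all genes) and with relative log expression scaling (10.7%). It was also 6 with a filter at 1 CPM in 3 samples (11.4%). Its share was therefore not below that of all genes in every alternative. Without Ddx41+/- replicate 6 the count was again 6, but there the share of all genes (13.7%) was above that of the factors.

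The size of the differences was small in both directions. The log2 fold change was above 0 in 31 factors and below 0 in 21, with a median of 0.02 beside 0.00 for all genes, and 48.8% of all genes lay above 0. The median absolute log2 fold change was 0.05, beside 0.11 for all genes tested and 0.07 for the 4884 genes with a mean CPM in the same range as the factors. A p that misses the threshold leaves a range of differences possible, and here that range was narrow. The 95% interval lay within 0.32 of 0 on the log2 scale in 49 of the 52 factors, beside 45.4% of all genes and 84.1% of genes in the same CPM range. Utp20, Imp3 and Taf1d were the exceptions, and within 1.5-fold either way lay all 52, beside 70.2% of all genes and 98.2% of genes in the same CPM range. Over all factors the ends of these intervals ran from 0.798-fold to 1.35-fold.

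**Figure D1:**
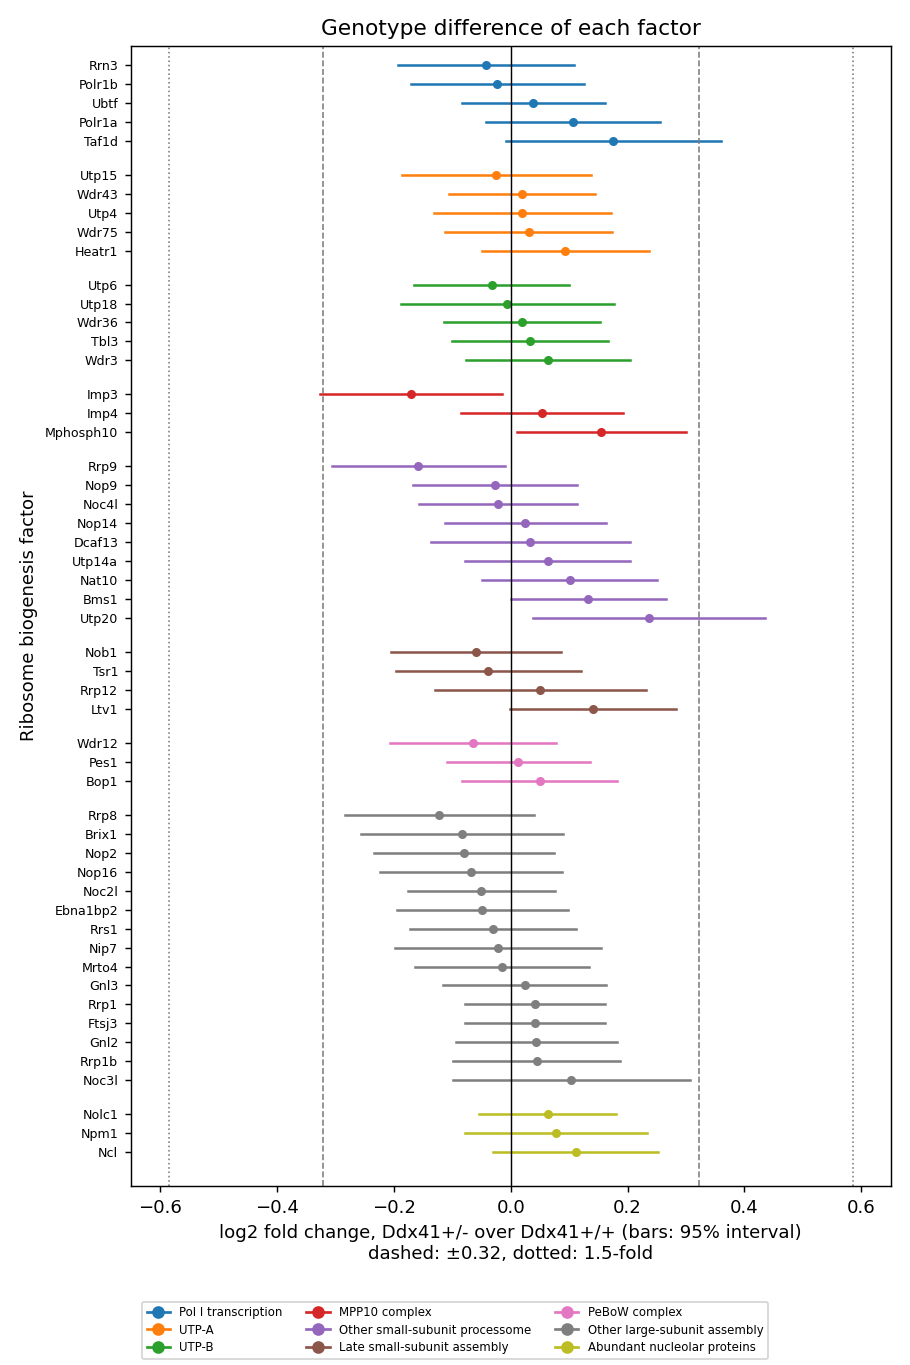
Log2 fold change (x axis) of each of the 52 ribosome biogenesis factors (y axis, grouped and coloured by role), with points for the edgeR estimate, bars for its 95% interval and lines at log2 values of ±0.32 (dashed) and at 1.5-fold (dotted). The points run from -0.17 for Imp3 to 0.24 for Utp20 and no bar reaches the 1.5-fold lines.

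Pol I transcription was represented by 5 factors, 3 with a log2 fold change above 0 and 2 below, with 0 of 5 past either threshold and a median of 0.04. Polr1a, the largest subunit of Pol I (chromosome 6, 71909053 to 71979435 in GRCm38, plus strand), was at 170.7, 150.3, 141.5 and 153.3 CPM in Ddx41+/+ replicates 1 to 4 and at 157.8, 165.6 and 174.1 CPM in Ddx41+/- replicates 6 to 8. Ddx41+/+ replicate 1 lay among the Ddx41+/- samples, so the groups overlapped, and the log2 fold change was 0.11 (SE 0.070, edgeR BH-adjusted p = 0.629). It was 0.16 without Ddx41+/+ replicate 1 and 0.07 without Ddx41+/+ replicate 3 or without Ddx41+/- replicate 8. Ubtf, the upstream binding factor that keeps rRNA genes in an active state, was at 316.0, 296.2, 285.9 and 294.7 CPM in Ddx41+/+ and at 315.0, 299.2 and 304.7 CPM in Ddx41+/- samples. Its Ddx41+/- samples lay inside the range of the Ddx41+/+ samples. Rrn3, whose promoter carries the pair of E-boxes shown above, was at 77.9, 73.6, 85.9 and 80.1 CPM in Ddx41+/+ and at 80.6, 75.1 and 75.5 CPM in Ddx41+/-. All 3 Ddx41+/- values again fell inside the Ddx41+/+ range, with a log2 fold change of -0.04 (95% interval -0.19 to 0.11).

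Taf1d, a subunit of the promoter selectivity factor of Pol I, had the second largest positive log2 fold change of the set. It was at 70.7, 81.2, 86.4 and 83.7 CPM in Ddx41+/+ and at 84.5, 103.1 and 85.2 CPM in Ddx41+/- samples. Ddx41+/- replicate 7 stood above the others and the remaining Ddx41+/- samples lay inside the Ddx41+/+ range. The log2 fold change was 0.18 (95% interval -0.01 to 0.36, edgeR BH-adjusted p = 0.496), and it was 0.08 without Ddx41+/- replicate 7. Taf1d holds 8 small nucleolar RNA (snoRNA) genes in the annotation, the most of any factor, Gnl3, Ncl and Wdr43 hold 3 each and Tsr1 holds 2. Polr1b, the second-largest subunit of Pol I, differed by -0.02 on the log2 scale.

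The UTP-A and UTP-B complexes bind the leading part of the rRNA precursor and start the small-subunit processome. In UTP-A, 4 of 5 members had a log2 fold change above 0 and 1 below, with a median of 0.02, and in UTP-B 3 of 5 lay above 0 with the same median to the second decimal. None of the 10 had an unadjusted p under 0.05 and none was without overlap. Heatr1, the largest UTP-A protein, was the most distant from 0 at 0.09, and Wdr3 led UTP-B at 0.06. Utp4, the gene with a pair of ETS-type matches, differed by 0.02, with CPM between 99.7 and 102.6 in Ddx41+/+ and between 93.1 and 113.0 in Ddx41+/- samples. The Ddx41+/- samples of Utp4 thus spread more widely than the Ddx41+/+ samples and enclosed them. Utp18, Utp6, Utp15, Wdr36, Wdr43, Wdr75 and Tbl3 ran from -0.03 to 0.03.

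The MPP10 complex was represented by 3 subunits, none of which passed after BH adjustment, with Mphosph10 higher and Imp3 lower in Ddx41+/- samples. Mphosph10, its scaffold (chromosome 7, 64376541 to 64392236, minus strand), was at 66.2, 71.3, 75.4 and 71.8 CPM in Ddx41+/+ and at 79.3, 80.9 and 77.6 CPM in Ddx41+/- samples. Every Ddx41+/- sample lay above every Ddx41+/+ sample, with a log2 fold change of 0.16 (SE 0.068, edgeR BH-adjusted p = 0.428). Imp3, a small subunit that contacts the U3 RNA (chromosome 9, 56937500 to 56938398, plus strand), was at 62.4, 59.7, 68.3 and 66.7 CPM in Ddx41+/+ and at 59.3, 55.5 and 56.5 CPM in Ddx41+/-. Here every Ddx41+/- sample lay below every Ddx41+/+ sample, by a narrow margin, with a log2 fold change of -0.17 (SE 0.074, edgeR BH-adjusted p = 0.423). Imp4, the partner of Imp3, differed by 0.05 and its groups overlapped. The ratio of Mphosph10 to Imp3 CPM was 1.06, 1.19, 1.10 and 1.08 in Ddx41+/+ and 1.34, 1.46 and 1.37 in Ddx41+/- samples. This ratio was chosen after its values were seen and is given without a test. Mphosph10 and Imp3 were each without overlap and in opposite directions, so the ratio had to separate the genotypes and adds nothing to their separate values. Neither gene passed after adjustment in any of the 15 alternatives run.

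Among the 9 other processome factors, 6 had a log2 fold change above 0 and 3 below, with a median of 0.03. Utp20, a very large scaffold protein (chromosome 10, 88746607 to 88826814, minus strand), was at 153.9, 127.2, 111.0 and 132.7 CPM in Ddx41+/+ and at 145.3, 150.0 and 168.4 CPM in Ddx41+/- samples. Ddx41+/+ replicate 1 lay among the Ddx41+/- samples and Ddx41+/+ replicate 3 was the lowest of the 7, so the groups overlapped. The log2 fold change of Utp20 was 0.24 (SE 0.093, edgeR BH-adjusted p = 0.380), the largest of the set, and its highest sample was 1.52 times its lowest. Without Ddx41+/+ replicate 1 it was 0.32 with a BH-adjusted p of 0.125, the smallest for any factor in the alternatives run. The log2 fold change of Utp20 was 0.16 without Ddx41+/+ replicate 3 and 0.17 without Ddx41+/- replicate 8.

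Bms1, a GTPase of the processome (chromosome 6, 118383381 to 118419802, minus strand), was at 146.6, 138.7, 150.3 and 135.8 CPM in Ddx41+/+ and at 150.7, 161.4 and 157.7 CPM in Ddx41+/- samples. The groups were separated by less than 1 CPM, and the log2 fold change was 0.13 (SE 0.063, edgeR BH-adjusted p = 0.469). Rrp9, the U3 RNA-binding protein (chromosome 9, 106477309 to 106485415, plus strand), was at 64.5, 64.3, 59.9 and 65.2 CPM in Ddx41+/+ and at 58.8, 54.8 and 57.0 CPM in Ddx41+/-. Its Ddx41+/- samples lay below all Ddx41+/+ samples, with a log2 fold change of -0.16 (SE 0.070, edgeR BH-adjusted p = 0.431). Nat10, the rRNA acetyltransferase, differed by 0.10, Utp14a by 0.06, Dcaf13 and Nop14 by 0.03, Nop9 by -0.03 and Noc4l, the partner of Nop14, by -0.02. The groups of these 6 overlapped.

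**Figure D2:**
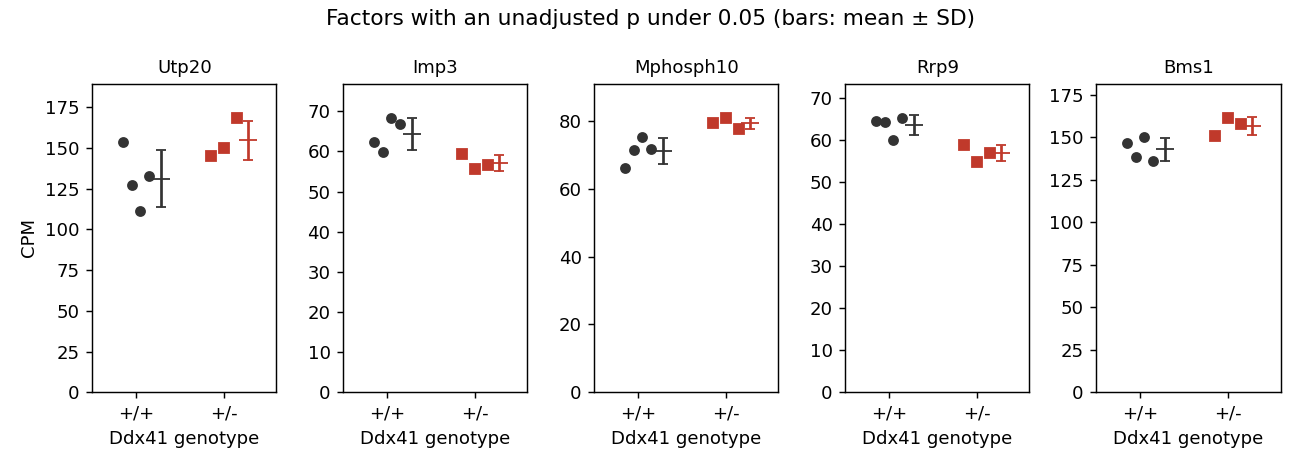
CPM (y axis, from 0) of the 5 factors with an unadjusted p under 0.05 in Ddx41+/+ (circles, n = 4) and Ddx41+/- (squares, n = 3) samples, with the mean ± SD beside each group. Utp20 is the gene of the 5 whose groups overlap, and none of the 5 passed after BH adjustment.

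The late steps of small-subunit assembly were represented by Tsr1, Ltv1, Nob1 and Rrp12, with a median log2 fold change of 0.01. Ltv1, an assembly factor of the pre-small subunit and the other gene with a pair of ETS-type matches, spanned 85.6 to 97.9 CPM in Ddx41+/+ samples, against 98.9 to 105.2 CPM in Ddx41+/- samples. The groups did not overlap, and the log2 fold change was 0.14 (SE 0.067, edgeR BH-adjusted p = 0.474). Nob1, the endonuclease that makes the mature end of the small-subunit rRNA, differed by -0.06, the GTPase-like Tsr1 by -0.04 and the export factor Rrp12 by 0.05, all with overlapping groups. Tsr1 was at 107.4 CPM in Ddx41+/- replicate 7 and between 124.7 and 132.4 CPM in the other samples.

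For the large subunit, the PeBoW complex of Pes1, Bop1 and Wdr12 had a median log2 fold change of 0.01. Pes1 was at 218.4, 222.7, 215.4 and 214.6 CPM in Ddx41+/+ and at 220.6, 229.8 and 208.8 CPM in Ddx41+/- samples. The Ddx41+/- samples enclosed the Ddx41+/+ range, with a log2 fold change of 0.01 (95% interval -0.11 to 0.14). Bop1 was at 158.4, 154.8, 142.6 and 158.1 CPM in Ddx41+/+ and at 164.1, 153.0 and 159.4 CPM in Ddx41+/-, a difference of 0.05 on the log2 scale (95% interval -0.08 to 0.18). Wdr12 was at 118.0, 122.7, 130.8 and 131.6 CPM and at 116.9, 128.0 and 116.0 CPM, a difference of -0.06 (95% interval -0.21 to 0.08). The groups of all 3 subunits overlapped.

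The 15 other large-subunit factors were the group with more genes below 0 than above, 9 against 6, with a median log2 fold change of -0.02 and a range from -0.12 for Rrp8 to 0.10 for Noc3l. None had an unadjusted p under 0.05 and none was without overlap. Nop2, a methyltransferase of the large-subunit rRNA with an E-box in the stretch shown above, was at 164.1, 146.9, 135.3 and 158.3 CPM in Ddx41+/+ and at 149.3, 135.2 and 144.7 CPM in Ddx41+/- samples. Its lowest sample was Ddx41+/- replicate 7, level with Ddx41+/+ replicate 3, and the log2 fold change was -0.08 (95% interval -0.23 to 0.07). Gnl3, the GTPase known as nucleostemin and abundant in stem cells, was at 179.0, 194.0, 192.8 and 199.3 CPM in Ddx41+/+ and at 189.0, 211.3 and 183.2 CPM in Ddx41+/- samples. Ddx41+/- replicate 7 was the highest and the groups overlapped, with a log2 fold change of 0.02 (95% interval -0.12 to 0.16). Rrp8, an rRNA methyltransferase, spanned 55.5 to 57.8 CPM in Ddx41+/+ samples, against 48.9 to 57.2 CPM in Ddx41+/- samples.

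The 3 abundant nucleolar proteins, nucleolin (Ncl), nucleophosmin (Npm1) and the phosphoprotein Nolc1, all had a log2 fold change above 0 (0.11, 0.08 and 0.06), and none had an unadjusted p under 0.05. Leaving out 1 sample at a time, the log2 fold change of Ncl ran from 0.04 (without Ddx41+/- replicate 7) to 0.17 (without replicate 8), and that of Npm1 from 0.03 when Ddx41+/+ replicate 1 was left out to 0.13 when Ddx41+/- replicate 8 was. Ncl was at 2052, 2190.1, 2226 and 2133 CPM in Ddx41+/+ and at 2277, 2556 and 2136 CPM in Ddx41+/- samples. Ddx41+/- replicate 7 was the highest and replicate 8 lay inside the Ddx41+/+ range (95% interval -0.03 to 0.25). When transcript length and GC content were corrected for, an alternative added after seeing the data, the log2 fold change of Ncl was -0.02. The transcript length used there for Ncl, 8202 bases with 2121 coding, includes long noncoding stretches, so this value depends on the transcript chosen. Npm1 was at 1263, 1470.0, 1562 and 1363 CPM in Ddx41+/+ and at 1533, 1562 and 1384 CPM in Ddx41+/- samples. Ddx41+/+ replicate 1 was the lowest and Ddx41+/+ replicate 3 was level with Ddx41+/- replicate 7, so the groups overlapped.

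**Figure D3:**
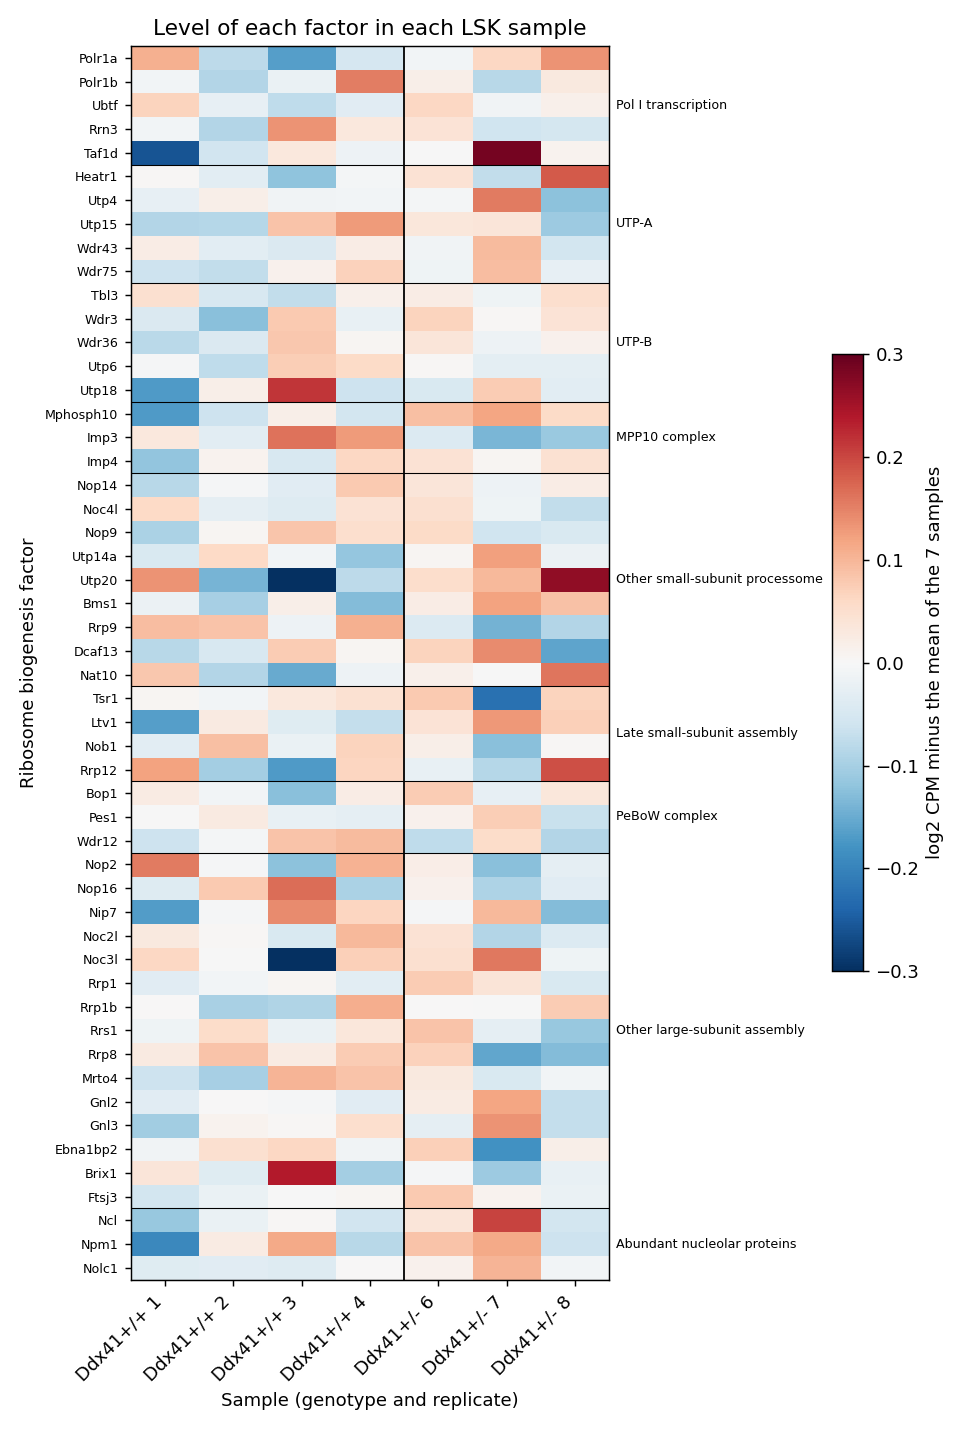
Log2 CPM of each factor (y axis, grouped by role) in each of the 7 samples (x axis), shown as the difference from that factor's mean over the samples. Colours run from -0.3 (blue) to 0.3 (red) and no role is of 1 colour across all Ddx41+/- samples and the other colour across all Ddx41+/+ samples.

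Compared per kilobase of coding sequence, mean levels ran from 16.9 CPM per kb for Utp20 and 20.2 for Noc3l to 1049 for Ncl and 1653 for Npm1. Together the factors held between 0.990% and 1.04% of all counts in a sample. The spread between samples was small for most factors. The SD of log2 CPM within genotypes had a median of 0.076 (0.038 to 0.166), beside 0.092 for genes in the same CPM range and 0.144 for all genes tested. The highest sample was under 1.5 times the lowest in 51 of the 52 factors. Joint variation across the 7 samples was described on log2 CPM after the mean of each genotype was subtracted for each gene. Over the 1326 pairs of factors, Pearson's r of these values had a median of 0.069, with quartiles of -0.347 and 0.445. For pairs of genes in the same CPM range the median was 0.003, with quartiles of -0.41 and 0.416. All pairs share the same 7 libraries and scaling.

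Long factors tended to lie on the higher side. Across the 52 factors, the log2 fold change and the coding length had a Spearman's rho of 0.454, beside 0.215 across 12622 genes tested with a coding length. With transcript length the values were closer, at 0.268 and 0.231. With GC content the values were -0.256 and -0.209. These are correlations across genes that share the same 7 libraries, and genes are not independent replicates. The 5 factors with the longest coding sequence were Utp20 (8367 bases), Heatr1 (6429), Polr1a (5151), Rrp12 (3885) and Bms1 (3852), all with a log2 fold change above 0. Imp3 has 552 coding bases and Rrp9 has 1425. Under the same correction for transcript length and GC content, the log2 fold change was 0.13 for Utp20, -0.10 for Imp3, -0.09 for Rrp9 and 0.01 for Polr1a. The number of factors with an unadjusted p under 0.05 was then 7, beside 11.5% of all genes in that fit. Among these, Utp20, Mphosph10 and Bms1 were kept, Imp3 and Rrp9 were lost, and Ltv1, Nat10, Taf1d and Wdr12 were gained. The transcript length used for Wdr12, 10012 bases with 1269 coding, includes long noncoding stretches.

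**Figure D4:**
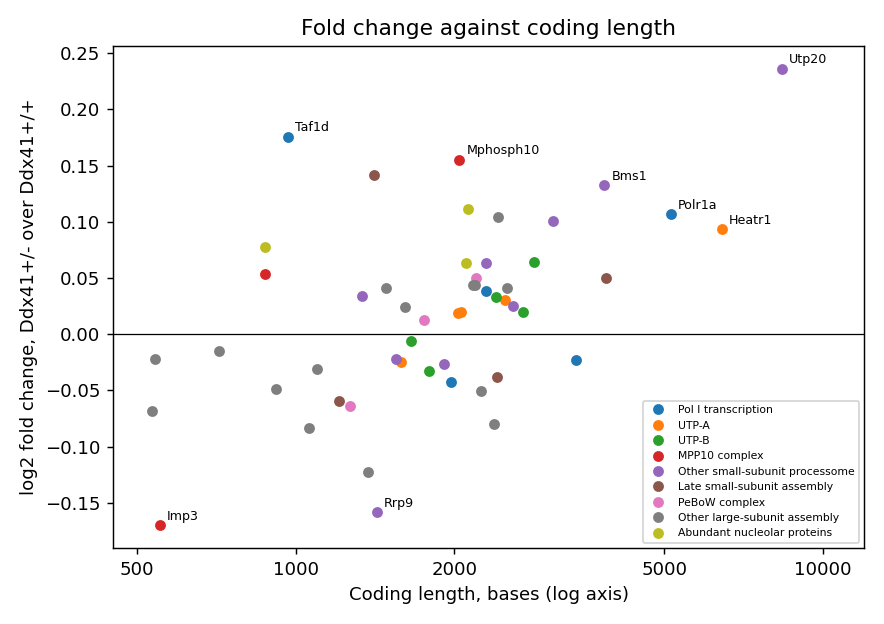
Log2 fold change (y axis) of each of the 52 factors against its coding length in bases (log x axis), coloured by role, with 8 genes labelled. The 5 longest, Bms1 and Rrp12 to Utp20, lie above 0, and Imp3, among the shortest, is the lowest.

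Genes with a promoter match did not stand on 1 side. Of the 10 factors with an E-box, 6 had a log2 fold change above 0 and 4 below, with a median of 0.02 and a range from -0.08 to 0.24. Of the 11 with an ETS-type match, 5 lay above 0 and 6 below, with a median of -0.02. Among the Myc genes themselves, Mycn fell from a mean of 24.7 CPM (SD 4.65, n = 4) to a mean of 13.0 CPM (SD 1.82, n = 3), a log2 fold change of -0.93 (edgeR BH-adjusted p = 0.0157). Myc averaged 485 CPM (SD 50.6) in Ddx41+/+ samples against 413 CPM (SD 103) in Ddx41+/- samples, with overlapping groups and a log2 fold change of -0.24 (edgeR BH-adjusted p = 0.675). Mycl, at a low level, averaged 4.73 CPM (SD 0.503) in Ddx41+/+ against 3.26 CPM (SD 1.78) in Ddx41+/- samples. Its groups overlapped too, with a log2 fold change of -0.53 (edgeR BH-adjusted p = 0.566).

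Other genes of the pathway were counted in the same way. Of 71 further ribosome biogenesis genes tested, 0 had a BH-adjusted p under 0.05 in edgeR. At an unadjusted p under 0.05 there was 1 of the 71, beside 10.6% of all genes and 5 of the 52 factors, the Pol I subunit Polr1e, which was lower (log2 fold change -0.22, edgeR BH-adjusted p = 0.355). Of the 71, 32 had a log2 fold change above 0 and 39 below, with a median of -0.01. Among 24 S-phase genes, 0 passed after adjustment, 3 had an unadjusted p under 0.05 (1 higher and 2 lower) and the median was -0.02. Among 24 genes of the G2/M phases, 0 passed after adjustment, 3 had an unadjusted p under 0.05, all higher, and the median was 0.02. For both lists the shares of all genes are 10.6% at an unadjusted p under 0.05, 5.7% higher and 4.93% lower. The rRNA precursor transcript Rn45s held on average 1.75% of counts in both genotypes, with an SD of 0.853 among the 4 Ddx41+/+ samples and 1.01 among the 3 Ddx41+/- samples (two-sided exact permutation p = 0.971). Libraries were made from poly(A) RNA, so that Rn45s counts do not measure rRNA synthesis.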

How the data were processed

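Per the labels, poly(A) RNA libraries were made with a stranded kit, while the study's methods name another kit, so the use of strand is not settled, and 17 factors overlap exons of a gene on the opposite strand. The authors deposited a table of raw, unscaled counts with 1 gene symbol per line. The submitters' processing notes name FastQC 0.11.7, HISAT2 2.0.5, featureCounts 1.5.2 and mm10. Per the name of the counts, a Ddx41+/- library numbered 5 was removed and was not analysed here, for a reason not stated.

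Counts were tested with edgeR 4.0.16 in R 4.3.3 (robust quasi-likelihood fit, genotype only, TMM scaling, filterByExpr), with BH adjustment over 13340 genes and a threshold of 0.05. Standard errors were obtained by dividing the size of the log2 fold change by the square root of its F statistic. CPM used TMM-scaled totals, and log2 CPM a prior count of 2. Single values were compared with an exact permutation test over the 35 possible labellings (smallest p 0.0286). Labels do not say that replicates are separate mice beyond their numbering, so p-values measure the spread between these samples. Values in every sample are given for factors with an unadjusted p under 0.05, the 2 extremes of fold change in each direction, the extremes of level per length, and 10 named genes. Length and GC came from 1 transcript per gene in the GRCm38 annotation, which included long noncoding stretches for Ncl, Imp4 and Wdr12, so levels used coding length. The GC and length correction used the transcript length, with those stretches included. The scripts were tested on simulated data. The factors, lists and rules were chosen with earlier results of these data known. Alternatives were other scalings and filters, DESeq2 1.42.0, limma-voom (limma 3.58.1), leaving out each sample, and a GC and length correction.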

Additional observations from a re-analysis of the deposited data

Results flagged for a closer look

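Nolc1 was at 322.0, 322.7 and 321.4 CPM in Ddx41+/+ replicates 1 to 3 and at 330.1 CPM in Ddx41+/+ replicate 4. The gap between replicate 4 and the nearest sample made up 0.852 of the range of the 4 samples, above Dixon's 95% critical value for 4 samples. This was 1 of 53 genes examined in this way, and chance gives about 1 in 20. The 3 Ddx41+/- samples of Nolc1 ran from 328 to 354 CPM.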

How the results depend on the processing

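The number of ribosome biogenesis factors with a BH-adjusted p under 0.05 was 0 in all 15 alternatives, and the median log2 fold change of the factors stayed between 0.0095 and 0.034. The log2 fold change of Ddx41 stayed between -0.56 and -0.49, with BH-adjusted p-values up to 0.0324. With library totals only, 3 factors had an unadjusted p under 0.05, beside 10.3% of all genes. In the same fit 3 did not overlap in CPM between genotypes. The share of all genes without overlap in that fit is not given here, so this count cannot be read as a result about the factors. Leaving out 1 sample at a time gave 1 to 6 and 5 to 10, where fewer samples overlap less often by construction. In those fits 7.31% to 13.7% of all genes had an unadjusted p under 0.05. Their share without overlap is not given here. Of the 240 values of the 16 factors described by sample, 7 changed sign and 0 passed the threshold. Pes1 was at -0.0026 with library totals only and at -0.0072 with limma-voom, Gnl3 at -0.009 with limma-voom and Ncl at -0.0156 with the GC and length correction, which also moved Wdr12 from -0.06 to -0.24. For Ncl and Wdr12 that correction used transcript lengths with long noncoding stretches. Leaving out 1 sample moved Gnl3 between -0.0406 and 0.065 and Pes1 between -0.0215 and 0.0482. The cause was not tested. The GC and length correction, and the searches for the ETS-type sequence and the CGCG-core element, were chosen after seeing the data. Of all genes, 29 had a BH-adjusted p under 0.05 with edgeR and 164 with DESeq2.

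No paired analysis was made because the labels do not link any Ddx41+/+ sample to a Ddx41+/- sample. With 4 and 3 samples the 95% intervals had half-widths of 0.12 to 0.20 on the log2 scale before any adjustment. Utp20, Imp3, Rrp9, Mphosph10 and Bms1, whose intervals left out 0, still missed the BH threshold. The smallest difference that would pass that threshold was not determined. The sources used here do not say if a read pair counts as 1 or 2.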
